A study of Homo sapiens with 6 samples.

Results

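Ribonucleotide reductase is the enzyme that reduces ribonucleoside diphosphates to the deoxyribonucleotides from which DNA is built. Its genes were taken as the rows of the expression table named *RRM1*, *RRM2* and *RRM2B*, which are 3 of 58735 genes, and all 3 passed the filter on low values. RNA sequencing was done on TPC-1, a human papillary thyroid carcinoma cell line, with 3 libraries of the wild strain (TPC-1) and 3 libraries of the overexpression strain (*RRM2*-OE-TPC-1), which the study made to learn how overexpressing *RRM2* alters the transcriptome. The overexpression strain was infected with a lentivirus made from the vector LV18, in which a CMV promoter drives a full-length *RRM2* insert, and was then selected with puromycin, whereas the control is the uninfected line. No library with an empty vector was analysed here. The effects of infection, selection, any other divergence of the derived strain and the insert therefore cannot be told apart. The genotype label reads RRM3 for replicate 2 and RRM4 for replicate 3 of *RRM2*-OE-TPC-1, while their titles give *RRM2*, and the titles were followed. The replicates are described as biological triplicates of each strain. Their spread, and the p-values that rest on it, do not cover differences between separately derived strains.

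The enzyme needs both kinds of subunit. *RRM1* encodes the large subunit, which holds the catalytic site and the sites where nucleotides bind to regulate it. *RRM2* encodes the small subunit of dividing cells, which carries the iron center and the tyrosyl radical needed for catalysis, is made in S phase and is degraded after it. *RRM2B* encodes the alternative small subunit p53R2, a known target of p53, which serves DNA repair and mitochondrial DNA synthesis outside S phase.

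The libraries held 14317091 to 17084067 reads on genes. Pearson correlation of log2 values was 0.9919 to 0.9929 within groups and 0.9432 to 0.9461 between them. Of the thyroid markers checked, *PAX8* had 69.3 ± 1.84 FPKM in the wild strain against 58.5 ± 1.92 FPKM in the overexpression strain (SD, n = 3 per strain; fragments per kilobase of gene length, scaled to sequencing depth), and *FOXE1* was also present. *TG*, *TSHR* and *SLC5A5* stayed under 0.1 FPKM on average, *NKX2-1* was listed at 0 in all 6 libraries, and of 5 epithelial markers only *KRT18* and *KRT8* passed 0.5 FPKM. The defining genes of differentiated thyroid cells were thus largely absent. The 10 markers of other cell types summed to 1.59 to 1.94 FPKM in TPC-1 and 0.507 to 0.706 in the overexpression strain, and *CD3E*, *COL1A2* and *MYOD1* were at 0 throughout. *COL1A1*, another collagen gene among them, was at 0.816 ± 0.0833 FPKM in TPC-1 and 0.501 ± 0.0852 FPKM in the overexpression strain (SD, n = 3 per strain). *KRT18*, an epithelial keratin, went from 41.2 to 85.2 FPKM on average and *PECAM1*, an endothelial marker, from 0.924 to 0.0588 FPKM, and their part in the results was not tested.

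All 3 subunit genes were higher in the overexpression strain, *RRM2* by 5.42-fold, *RRM1* by 2.50-fold and *RRM2B* by 2.03-fold. *RRM2*, the gene carried by the virus, checks the labels. *RRM2* (ENSG00000171848) lies on the plus strand of chromosome 2 from 10120698 to 10131419 of GRCh38, and GENCODE 29 marks 2 of its transcripts as principal, of 3271 bases in 10 exons and 3431 bases in 11 exons. The shorter was used wherever principal length is named. Its FPKM in replicates 1 to 3 was 9.17, 9.05 and 8.52 in TPC-1 and 50.4, 47.5 and 47.2 in the overexpression strain. Every library of the overexpression strain lay above every library of the wild strain, also those whose genotype label reads RRM3 and RRM4. The group levels were 8.92 ± 0.346 FPKM and 48.4 ± 1.78 FPKM (SD, n = 3 per strain). The log2 fold change was 2.43 (standard error 0.0442, 95% interval 2.32 to 2.53, limma adjusted p = 1.11e-08).

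Transcripts of the viral insert and of the cells' own gene fall on the same row, so the value of *RRM2* can hold both. How much untranslated sequence the insert carries was not stated in the sources used here. FPKM divides all these reads by the same gene length. If transcripts of the insert are shorter, the level and fold change of *RRM2* do not count transcripts alike in both strains. The *RRM2* value rested on 723 to 815 reads per library in TPC-1 and 3878 to 4334 in the overexpression strain. *AC007240.1*, a gene on the same strand that shares 1077 exonic bases with *RRM2*, had 0.616 ± 0.0835 FPKM in the wild strain against 0.316 ± 0.0754 FPKM in the overexpression strain (SD, n = 3 per strain). The log2 fold change was -0.79 (limma adjusted p = 0.00964), opposite in sign to that of *RRM2*. It was -0.30 with a pseudocount of 1, and it did not pass with no filter on low values (limma adjusted p = 0.0680). How reads in the bases shared by both genes were counted was not stated. The level and fold change of *RRM2* are uncertain to that extent.

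*RRM1* (ENSG00000167325) lies on the plus strand of chromosome 11 from 4094707 to 4138876, with 19 exons in a principal transcript of 3076 bases. It was not introduced into the cells. Its FPKM in replicates 1 to 3 was 16.1, 16.5 and 15.5 in TPC-1 and 42.0, 39.6 and 38.7 in the overexpression strain. The groups did not overlap, and the gap between them was far wider than the spread inside either. The group levels were 16.0 ± 0.483 FPKM and 40.1 ± 1.70 FPKM (SD, n = 3 per strain), and the log2 fold change was 1.32 (standard error 0.0428, 95% interval 1.22 to 1.42, limma adjusted p = 1.57e-07). A higher level in each cell and a larger share of cells with the transcript cannot be told apart in bulk RNA, for this gene as for the others.

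*RRM2B* (ENSG00000048392) lies on the minus strand of chromosome 8 from 102204502 to 102239118, with 9 exons in a principal transcript of 4931 bases. Its FPKM in replicates 1 to 3 was 15.6, 16.9 and 16.6 in TPC-1 and 34.9, 31.7 and 32.9 in the overexpression strain. Here too all overexpression libraries were above all wild strain libraries. The group levels were 16.3 ± 0.693 FPKM and 33.2 ± 1.59 FPKM (SD, n = 3 per strain), and the log2 fold change was 1.02 (standard error 0.0485, 95% interval 0.91 to 1.13, limma adjusted p = 9.32e-07). The interval includes 1, so that a threshold of 1 on the log2 scale fell inside the error of this gene. The value was 0.98 without replicate 1 of TPC-1 and 0.98 without replicate 1 of *RRM2*-OE-TPC-1, with the limma adjusted p at 9.62e-06 and 5.52e-06. Over all alternatives that p lay between 4.98e-15 and 4.44e-05.

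**Figure D1:**
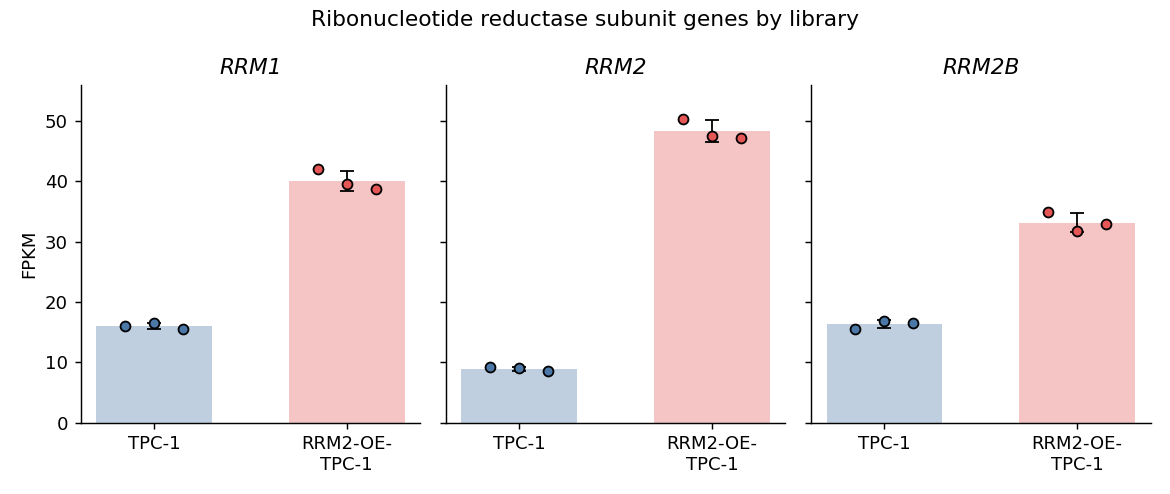
FPKM of the 3 subunit genes in each library (points, replicates 1 to 3 from left to right), with bars at the group mean and error bars of 1 SD (n = 3). The libraries of *RRM2*-OE-TPC-1 lie above those of TPC-1 for each gene, and *RRM2* goes from the lowest of the 3 in TPC-1 to the highest.

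These changes have to be read against a comparison in which most genes differed. Of the 13621 genes tested, 67.6% passed an adjusted p of 0.05 or less, with 34.9% higher in *RRM2*-OE-TPC-1 and 32.7% lower, and the median log2 fold change was 0.011. The balance depended on scaling, with 27.7% higher and 37.0% lower when all libraries were set to equal FPKM totals, and 32.2% higher and 37.8% lower with voom on recovered reads. The groups did not overlap, with *RRM2*-OE-TPC-1 higher, for 37.3% of genes. Asking in addition for a log2 fold change of at least 1 in size left 4.48% higher and 6.97% lower. All 3 subunit genes were among the 4.48%. By log2 fold change, counted from the highest, *RRM2* ranked 51, *RRM1* 289 and *RRM2B* 585 of 13621. *RRM2* moved from the 64.9th to the 94.3rd percentile of expression level among tested genes, *RRM1* from the 81.0th to the 92.9th and *RRM2B* from the 81.3rd to the 91.0th.

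The order of the 3 levels was not the same in the 2 strains. In TPC-1, *RRM2* was lowest by FPKM, while *RRM1* and *RRM2B* overlapped and could not be ordered. In *RRM2*-OE-TPC-1 the order by FPKM was *RRM2B*, *RRM1*, *RRM2* from low to high, and no neighbours overlapped. FPKM divides by the length of all exons of a gene merged. Dividing instead by the principal transcript, a scale chosen after seeing the table, gave in TPC-1 14.5 ± 0.563 for *RRM2*, 18.4 ± 0.779 for *RRM2B* and 21.8 ± 0.656 for *RRM1* (on the same units as FPKM, SD, n = 3). On that scale *RRM1* and *RRM2B* did not overlap in TPC-1. In *RRM2*-OE-TPC-1 the values were 37.3 ± 1.79 for *RRM2B*, 54.4 ± 2.31 for *RRM1* and 78.7 ± 2.89 for *RRM2* (SD, n = 3 per strain), and the order was as by FPKM.

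Because a working enzyme pairs a small with a large subunit, the levels were also set against each other inside each library, where depth cancels. The ratio of *RRM2* to *RRM1* FPKM in replicates 1 to 3 was 0.569, 0.550 and 0.550 in TPC-1 and 1.20, 1.20 and 1.22 in the overexpression strain. By FPKM, *RRM2* was below *RRM1* in every wild strain library and above it in every overexpression library. The means were 0.556 ± 0.0114 and 1.21 ± 0.01 (SD, n = 3 per strain), a difference of 1.12 on the log2 scale. The ratio of *RRM2* to *RRM2B* went from 0.547 ± 0.0387 to 1.46 ± 0.0355 (SD, n = 3 per strain), a difference of 1.42 on the log2 scale. *RRM2B* lost ground to *RRM1*, with ratios of 0.965, 1.03 and 1.07 in TPC-1 and 0.831, 0.802 and 0.851 in the overexpression strain. That was a difference of -0.30 on the log2 scale. For each of these ratios the groups did not overlap, and the two-sided exact permutation test gave p = 0.10, the smallest value that 3 libraries against 3 allow. The *RRM2* value includes any reads of the viral insert, so a rise in its ratios is not a result about the cells' own genes. Only the ratio of *RRM2B* to *RRM1* compares genes that were not introduced.

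**Figure D2:**
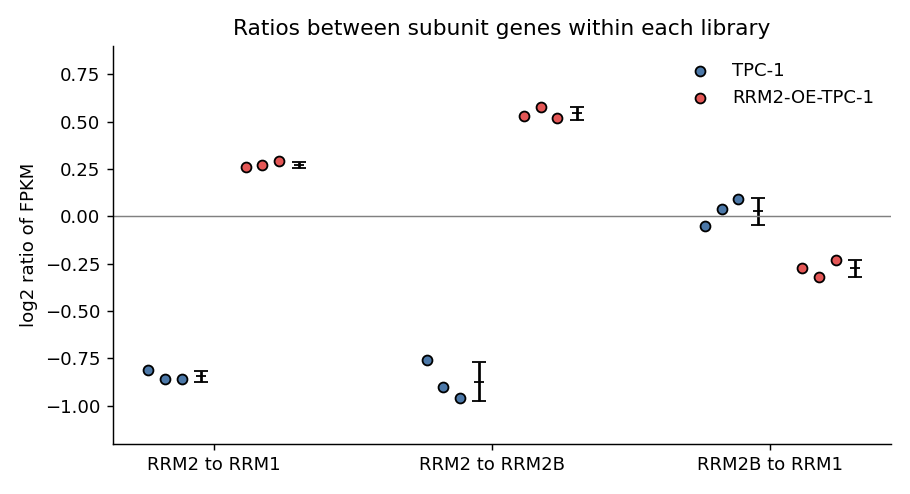
Log2 ratio of FPKM between pairs of subunit genes within each library (points), with the group mean and 1 SD beside them (n = 3). *RRM2* passes *RRM1* and *RRM2B* in the overexpression strain, with mean log2 ratios of 0.27 and 0.54 against -0.85 and -0.87 in TPC-1.

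Of the FPKM of both small subunit genes together, *RRM2* held 37.1%, 34.9% and 34.0% in replicates 1 to 3 of TPC-1. In *RRM2*-OE-TPC-1 it held 59.1%, 60.0% and 58.9%. The transcripts of the alternative small subunit were thus the more abundant in the wild strain and the less abundant in the overexpression strain, on the FPKM scale. By principal transcript length the share of *RRM2* was 44.1% ± 1.73 and 67.8% ± 0.527 (SD, n = 3 per strain), with the same order. Neither scale allows for the bases that *RRM2* shares with *AC007240.1*, or for the unstated length of transcripts from the viral insert. The level of *RRM2* against the other subunit genes within a strain, and so their order, is uncertain to that extent. The sum of both small subunit genes relative to *RRM1* was 1.58 ± 0.0415 in TPC-1 and 2.04 ± 0.0334 in the overexpression strain (SD, n = 3, exact permutation p = 0.10). The share of *RRM2* and this sum include any reads of the viral insert, so their rise is not a result about the cells' own genes.

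The subunit genes have relatives that could take or lend reads. *RRM2P2*, *RRM2P3* and *RRM2P4*, processed pseudogenes of *RRM2*, held 4 recovered reads in the 6 libraries together. *RRM1-AS1*, which overlaps *RRM1* on the opposite strand by 63 exonic bases, held 1 read in TPC-1 and 4 in the overexpression strain. None of these rows had more than 3 reads in any library, and none passed the filter. How reads that align to several places were counted was not stated. These rows therefore cannot show whether the subunit genes lost reads in that way.

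The promoters of the endogenous genes are shown because *RRM2* is known for CCAAT boxes, the element bound by the factor NF-Y. The endogenous and the viral copy do not share these sequences unless the insert carried them, which was not stated. The RefSeq promoter table (GRCh38.p14) held windows for *RRM2* and *RRM1*, and the 250 bases before each start were searched on both strands for CCAAT, for TTTNNCGC, a loose form of the site of E2F factors, and for TTTGAA, the cell cycle homology region. Before the *RRM2* start at 10122739 lay 3 copies of CCAAT, all on the gene's strand, at 123, 93 and 66 bases before the start. Before the *RRM1* start at 4094685 lay 1 copy, at 28 bases. The stretches around them follow, 5′ to 3′ on the plus strand, with CCAAT in capitals.
RRM2, chr2:10122604-10122632: ggcaaggcgcagCCAATgggaagggtcgg
RRM2, chr2:10122634-10122662: ggcatggcacagCCAATgggaagggccgg
RRM2, chr2:10122661-10122689: ggggcaccaaagCCAATgggaagggccgg
RRM1, chr11:4094645-4094673: gcatgtccatatCCAATggggcccatggg

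Of the 12 bases that follow CCAAT, 11 are identical in the 3 *RRM2* copies, and the copies fall within exons of longer *RRM2* transcripts in GENCODE 29. CCAAT occurred in 32.0% of 35116 promoter windows of that length, and 3 or more copies in 2.93%. A window before another *RRM2* start, at 10122568, held 1 copy. TTTNNCGC, which occurred in 5.92% of windows, had no match in those of *RRM2* and *RRM1*. TTTGAA, in 13.3% of windows, matched once before *RRM1*, on the opposite strand, and not before *RRM2*. None of the matches overlapped another.

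The pathway around the enzyme was described with 7 hand-written lists of 90 genes, 87 of them tested. At an adjusted p of 0.05 or less, 61 were higher in *RRM2*-OE-TPC-1, 15 were lower and 11 did not pass, against 34.9% higher and 32.7% lower among all tested genes. With the fold change threshold in addition, 16 were higher and 4 lower, and the median log2 fold change of the 87 genes was 0.54.

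Ribonucleotide reductase is recharged with electrons by thioredoxin or glutaredoxin. Among its 7 electron donor genes 4 rose and 2 fell, none by a log2 fold change of 1 (median 0.28). Among all tested genes 34.9% were higher and 32.7% lower. *TXN*, thioredoxin itself, rose from 140 ± 4.78 to 267 ± 0.862 FPKM (SD, n = 3 per strain), a log2 fold change of 0.93. *GLRX*, glutaredoxin, rose by 0.78 from a low level of 1.43 FPKM, and *TXNRD2*, the mitochondrial thioredoxin reductase, by 0.67. *GSR*, glutathione reductase, fell by 0.53 on the log2 scale. *TXNRD1*, the cytosolic thioredoxin reductase, had 122 ± 4.45 and 113 ± 1.28 FPKM (SD, n = 3 per strain). Its log2 fold change of -0.11 passed narrowly (limma adjusted p = 0.0298) and did not pass without replicate 1 or 3 of TPC-1 or replicate 2 or 3 of *RRM2*-OE-TPC-1, where the adjusted p was 0.0698 to 0.114. Over all alternatives its limma adjusted p ran from 4.64e-05 to 0.114.

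Among 14 other genes of deoxyribonucleotide synthesis, salvage and breakdown, 8 rose and 3 fell (median log2 fold change 0.46), against 34.9% and 32.7% of all tested genes. *TYMS*, thymidylate synthase, rose from 10.7 ± 0.943 to 26.5 ± 0.479 FPKM (SD, n = 3 per strain), a log2 fold change of 1.30, close to that of *RRM1*. *NME1*, a nucleoside diphosphate kinase whose reads can be confused with those of *NME2* and their readthrough transcript, rose by 1.15, and *DCK*, deoxycytidine kinase, by 0.92. *SAMHD1*, which breaks down deoxyribonucleotides, rose by 0.51 from 1.18 FPKM, or by 0.32 with a pseudocount of 1. The genes that fell were *NT5M*, a mitochondrial deoxyribonucleotidase at 0.788 FPKM in TPC-1, by 1.52, *TK2*, mitochondrial thymidine kinase, by 1.24, and *NT5C*, the cytosolic deoxyribonucleotidase, by 0.46 on the log2 scale. The size for *NT5M* depended on the pseudocount, and with a pseudocount of 1 the log2 fold changes of *NT5M* and *TK2* were -0.56 and -0.97. *DUT*, which hydrolyses dUTP, had a log2 fold change of 0.17 and did not pass (limma adjusted p = 0.0590, between 0.0236 and 0.441 over the alternatives).

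Of 11 genes whose proteins act on the enzyme or its subunits, 7 rose and 2 fell (median log2 fold change 0.18). The shares among all tested genes were 34.9% higher and 32.7% lower. *CCNF*, cyclin F, which marks the RRM2 protein for destruction after S phase, rose from 4.73 ± 0.0938 to 10.1 ± 0.0694 FPKM (SD, n = 3 per strain), a log2 fold change of 1.08. *FZR1*, the activator of the ligase that removes RRM2 on leaving mitosis, rose by 0.18, a change that did not pass when all libraries were set to equal FPKM totals (0.09, limma adjusted p = 0.181, the highest over the alternatives, with 0.00345 the lowest). The checkpoint kinase genes *WEE1* and *CHEK1* rose by 0.80 and 0.64. *AHCYL1*, which encodes IRBIT, a protein that binds the enzyme and inhibits it, fell from 76.0 ± 1.70 to 36.6 ± 0.304 FPKM (SD, n = 3 per strain), a log2 fold change of -1.05. *ATM*, the kinase of the double-strand break response, fell by 0.28 on the log2 scale.

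Among 22 tested cell cycle transcription factors, of which E2F and NF-Y are known regulators of *RRM2*, 14 rose and 4 fell, none by a log2 fold change of 1 (median 0.31). With equal FPKM totals 8 rose and 4 fell. The shares among all tested genes were 34.9% higher and 32.7% lower, or 27.7% and 37.0% with equal FPKM totals. *E2F1* rose from 9.89 ± 0.908 to 19.2 ± 0.805 FPKM (SD, n = 3 per strain), a log2 fold change of 0.96. *MYBL2*, the B-Myb gene, rose by 0.95, and the repressive E2F genes *E2F7* and *E2F8* by 0.88 and 0.53. *NFYB*, a subunit of NF-Y, fell by 0.89, *E2F5* by 0.77 and the pocket protein gene *RBL2* by 0.69 on the log2 scale. All 7 genes of the replication helicase and clamp rose (median 0.77), with *PCNA*, the clamp, from 34.1 ± 1.01 to 122 ± 1.94 FPKM (SD, n = 3 per strain), a log2 fold change of 1.83. *MCM4* and *MCM2*, subunits of the helicase, rose by 1.48 and 0.77.

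*RRM2B* belongs to the known targets of p53, and of 20 other tested targets 19 rose and 1 fell. A log2 fold change of 1 or more was seen in 10 of the 20, against 4.48% of all tested genes, and the median was 1.06, near the 1.02 of *RRM2B*. The p53 target genes were listed with earlier results of these libraries known, so their direction is not independent evidence. *BTG2*, an antiproliferative gene, rose from 3.19 ± 0.342 to 24.5 ± 0.392 FPKM (SD, n = 3 per strain), a log2 fold change of 2.91. *CDKN1A*, which encodes the cell cycle inhibitor p21, rose by 2.33 and *MDM2*, the ligase that degrades p53, by 2.17. *SESN2*, a stress gene, fell by 0.75 on the log2 scale.

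The study reached *RRM2* through a prognostic model of 9 genes of glutathione metabolism. Of the other genes listed from it 6 were tested, 2 of them higher and 3 lower (median log2 fold change -0.40). Among all tested genes 34.9% were higher and 32.7% lower. *GGT5*, at 0.576 FPKM in TPC-1 and 0.0333 FPKM in the overexpression strain, did not pass the filter. With no filter on low values 2 of 7 were higher and 4 lower (median -0.53). *ODC1*, ornithine decarboxylase of polyamine synthesis, rose from 25.8 ± 1.81 to 66.4 ± 3.30 FPKM (SD, n = 3 per strain), a log2 fold change of 1.36. *GCLM*, the modifier subunit of the first enzyme of glutathione synthesis, rose by 0.55. *OPLAH*, 5-oxoprolinase, fell by 1.14, *IDH2*, mitochondrial isocitrate dehydrogenase, by 0.66, and *GSR*, given above, was the third. The exons of *TYMS*, *TXNRD2*, *FZR1*, *MCM2*, *MDM2*, *E2F5*, *RBL2*, *NT5C*, *ATM*, *PAX8*, *KRT8* and *KRT18* share bases with an expressed gene of the opposite strand. Those of *DCK*, *CHEK1* and *RRM2* share bases with an expressed gene of their own strand. The values of all these genes are uncertain to that extent.

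**Figure D3:**
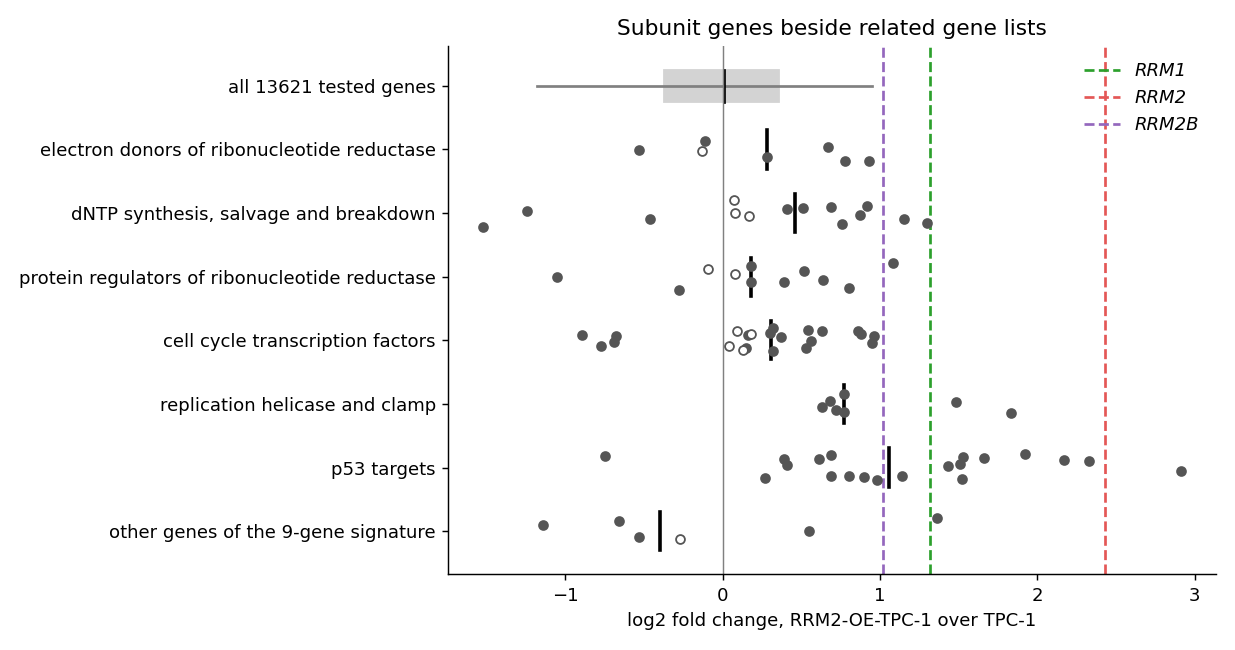
Log2 fold change of the tested genes in each list (points, filled where the adjusted p is 0.05 or less), with the list median as a black bar and the 3 subunit genes as dashed lines. The top row gives all 13621 tested genes, with the median, the box from the 25th to the 75th percentile and the line from the 5th to the 95th. The p53 targets have the highest median (1.06) and the other genes of the 9-gene signature the lowest (-0.40).

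The genes lying near the subunit genes were compared in the same fit. Within 500 kb of *RRM2*, 12 of 31 genes were tested, and 9 fell and 3 rose, with a median log2 fold change of -0.84 (-0.37 with a pseudocount of 1), against 32.7% lower and 34.9% higher among all tested genes. Under the alternatives 7 to 9 of the 12 fell, or 6 of 9 with protein-coding genes only. The 9 that fell in the main fit lay between 0 and 186 kb from *RRM2*, and the 3 that rose between 309 and 490 kb. The gene at 0 kb was *AC007240.1*, which shares exonic bases with *RRM2*. *CYS1*, which encodes cystin of the primary cilium, fell from 3.40 ± 0.348 to 0.968 ± 0.0396 FPKM (SD, n = 3 per strain) at 39.8 kb, a log2 fold change of -1.71. *ODC1* was among the 3 that rose, at 309 kb. Around *RRM1*, 7 of 47 genes were tested, of which 3 rose and 1 fell (median 0.36), against 34.9% and 32.7% of all tested genes. The one that fell was *STIM1*, the calcium sensor of the endoplasmic reticulum, 1.50 kb from *RRM1*, by 0.82 on the log2 scale, and *NUP98*, a nuclear pore gene, rose by 0.60. Around *RRM2B*, 4 of 20 genes were tested, and 2 of them fell, or 1 to 3 under the alternatives, a count too small to set against the 32.7% of all tested genes (median -0.32). The largest of the 4 in size were those of *AP002907.1* (log2 fold change -0.37, limma adjusted p = 0.305) and *KLF10*, a Krüppel-like factor gene (-0.35, limma adjusted p = 1.23e-04).

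**Figure D4:**
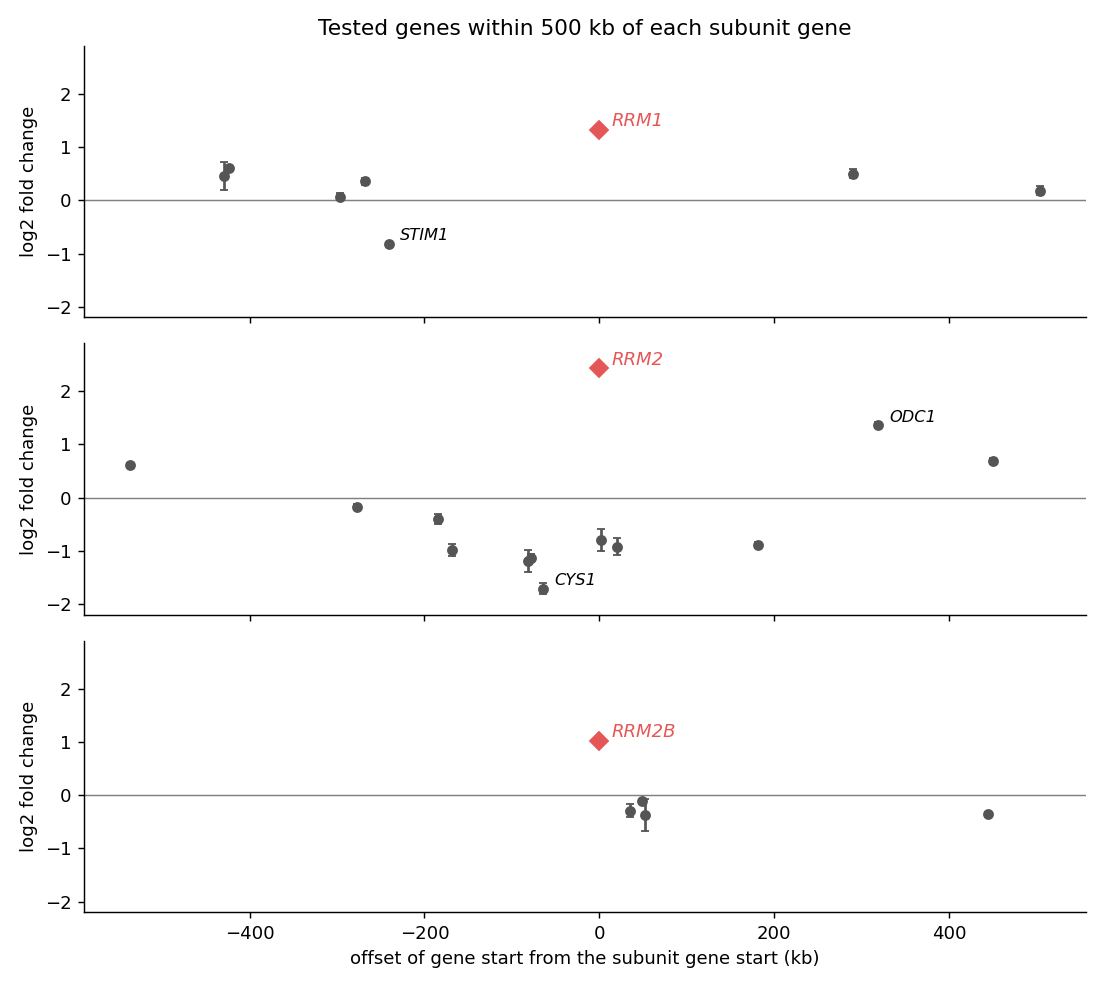
Log2 fold change of the tested genes within 500 kb of each subunit gene (grey, with standard errors) against the offset of their start from its start in kb, with the subunit gene in red at 0. The tested genes whose nearest edge is within 186 kb of *RRM2* lie below 0, down to -1.71 for *CYS1*, while *RRM2* stands at 2.43. Their starts, as drawn, can lie further away.

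The genes with the profile most like each member over the 6 libraries were found among 11451 protein-coding genes by the root mean square distance of centered log2 values. With 2 groups of 3, such a distance mostly reflects the size of the difference between strains. For *RRM1* they were *ZWINT*, a kinetochore gene (distance 0.0359), *PSMD2*, a proteasome subunit (0.0435), and *STARD13* (0.0457). For *RRM2* they were *CDKN1A* (0.0743), *EFEMP1*, an extracellular matrix gene (0.0749), and *HSP90AA1*, the inducible cytosolic HSP90 (0.0749). For *RRM2B* they included *SPCS3*, a signal peptidase subunit (0.0207), and *SLBP*, the histone stem-loop binding protein (0.0307). The members were not each other's nearest genes. *RRM2B* ranked 252 by likeness to *RRM1*, at a distance of 0.157, and *RRM1* ranked 177 by likeness to *RRM2*, at 0.555.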

How the data were processed

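Messenger RNA of 3 TPC-1 and 3 *RRM2*-OE-TPC-1 libraries was measured. The authors used fastp for trimming, HISAT2 2.0.5 for alignment and featureCounts 1.5.0 for counting per gene (versions and the build GRCh38.p14 are in the submitters' processing notes), and deposited FPKM values. Their own test used DESeq2 1.20.0. Methods describe poly(A) selection, labels rRNA depletion with RNase R treatment, and whether counting used strand was not stated. All 58735 identifiers and positions matched GENCODE 29.

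Multiplied by gene length, the FPKM gave whole reads within 0.01 for 100.0% of genes. Genes were tested if 3 or more libraries had an FPKM of 0.5 or above and 3 or more had 10 or more of these reads, and values entered as log2(FPKM + 0.1), which understates changes of low genes, with limma 3.58.1 in R 4.3.3 (lmFit, eBayes with variance trend, Benjamini-Hochberg over all tested genes). Exact tests and plots used scipy 1.17.1 and matplotlib 3.10.9 under Python 3.11.15. The procedure was tested on simulated data with 200 changed genes, where it recovered 99.0% of the 192 that were tested, and with none changed. Far fewer genes changed there than passed here, so it cannot show how the procedure does when most genes differ. A gene passed if its adjusted p was at most 0.05, and where stated its log2 fold change had also to be 1 or more in size.

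The members, lists and tests were chosen with earlier results of these data known. The text names the members, genes whose names start with theirs, up to 3 genes per list and direction with the largest change among those that passed, fixed genes (*TXN*, *TXNRD1*, *GLRX*, *SAMHD1*, *TYMS*, *DUT*, *CCNF*, *FZR1*, *E2F1*, *E2F8*, *CDKN1A*, *MDM2* and *ODC1*), 2 neighbours and 3 most alike genes per member. Some genes that this rule covers are not reported here.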

Additional observations from a re-analysis of the deposited data

How the results depend on the processing

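The log2 fold changes of *RRM1* (1.23 to 1.34) and *RRM2* (2.32 to 2.45) kept their direction and passed both thresholds under all 15 alternatives. *RRM2B* kept its direction and an adjusted p of 0.05 or less (limma, at most 4.44e-05). It fell below a log2 fold change of 1 with equal totals (0.93), a pseudocount of 1 (0.98) and voom on recovered reads (0.96). With each library left out it ranged from 0.98 to 1.05, below 1 without replicate 1 of either strain. Genes passing both thresholds numbered 1560, against 716 with a pseudocount of 1 and 2281 of 30958 with no filter. The *RRM2* to *RRM1* and *RRM2* to *RRM2B* log2 ratio differences were 1.05 and 1.34 with a pseudocount of 1. Leaving out each library changed no ratio by more than the spread. Of 1305 values for 87 list genes, 1259 kept their side of the threshold, 35 lost it and 11 gained it. Counted on rounded values, the sign turned in 4, all of *DGUOK* and *NFYC*, which did not pass under any of these settings. *CDC27* and *DCTD*, at 0.08 in the main fit, came to -0.00 with equal FPKM totals and did not pass there. Deviations of same-numbered replicates of the strains had correlations of -0.011, -0.006 and -0.055, and those of differently numbered ones -0.048 to 0.061. Such values cannot show whether same-numbered samples were handled together. With the replicate number as a block, 8934 genes passed the adjusted p against 9207, and *RRM2*, *RRM1* and *RRM2B* gave 2.43, 1.32 and 1.02. Depth limits rows such as *RRM2P4* and *RRM1-AS1*, where a change was not detectable.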
